A study of Mus musculus with 19 samples.

Results

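The messenger RNA of 38 named cell cycle genes was followed in the livers of 19 mice. They were taken by gene symbol from a deposited table of 55836 genes, and all 38 symbols had a row. They comprise 6 genes of the G1 phase (cyclins, kinases and the factor E2f1), 7 of origin licensing and the replicative helicase, 4 of replication and nucleotide supply, 7 of mitotic entry, 6 of the spindle checkpoint and the chromosomal passenger complex, and 8 of the spindle and chromosomes. The mice were wild-type C57BL/6 males, 8 weeks old at the start, which then spent 8 weeks on one of 2 diets with a daily oral gavage. Chow Diet in the labels, called control diet (CD) here, held 10% of its kcal as fat, and the MD, made to induce the fatty liver disease MASH, held 40% of its kcal as fat and 20% as fructose, with 2% cholesterol. The gavage was either vehicle (Veh, 0.1% Tween 20 in water) or 2 mg per mouse and day of polyethylene (PE) microplastic in that vehicle. There were 4 mice on CD + Veh and 5 each on MD + PE, MD + Veh and CD + PE, with 1 library from the liver of each mouse.

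A cell that divides passes through G1, copies its DNA in S phase, and segregates the copies in mitosis. D and E cyclins with the kinases Cdk4 and Cdk2 release E2F factors, which switch on the helicase and nucleotide genes, and the FOXM1 and DREAM-regulated genes of mitosis come on last. Hepatocytes of an adult liver are nearly all quiescent, and the tissue is better known for re-entering the cycle after injury or loss of mass, while resident macrophages and other non-parenchymal cells also divide in place. In a whole liver sample, fewer dividing cells and less of each messenger per dividing cell cannot be told apart.

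Most of these genes were scarce. Expression is given as CPM, the read count of a gene scaled to a common library size after correction by the trimmed mean of M values (TMM). Over the 19 libraries, 17 of the 38 genes averaged below 1 CPM, 13 lay between 1 and 5, 5 between 5 and 15, and 3 (Ccnd1, Cdk4 and Pcna) at 15 or above. A library held between 10398820 and 15456729 counts in all, of which 1376 to 2857 belonged to the 38 genes. The 2 PE groups were the shallower, with median totals of 10837229 (CD + PE) and 11615001 (MD + PE) against 15089731.5 (CD + Veh) and 14790140 (MD + Veh). Every PE library carried a higher library number (48 to 57) than every vehicle library (39 to 47), so PE and library order cannot be told apart.

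The livers carried their defining markers, with the 6 hepatocyte genes summing to between 47000 and 92900 CPM (Alb the highest). Several libraries stood apart in other tissues' genes. The 6 skeletal muscle genes summed to 2720 CPM in MD + Veh replicate 1 and 352 CPM in CD + PE replicate 1, against at most 172 elsewhere. The 6 bile duct genes reached 149 CPM in MD + PE replicate 2 against at most 21.4 elsewhere. Of that sum Krt19 gave 58.7 CPM and Epcam 29.2 CPM, while Sox9 was at 14.2 CPM there and 14.0 CPM in MD + PE replicate 4. The 8 intestinal genes were also highest in MD + PE replicate 2, at 224 CPM against at most 137 elsewhere, with Lgals4 at 52.2 CPM against at most 26.4. The 6 Kupffer cell genes, those of the liver's resident macrophages, summed to 459 CPM in CD + PE replicate 2 against 88.4 to 118 in the other mice of that group. The part of these in the results below was not tested, other than where a value without the library is given.

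Per kilobase of the canonical transcript, most of the G1 and replication genes stood above most of the mitosis genes. Ccne2, at 0.194 CPM per kb, and Cdc6 did not. The highest mean level was that of Pcna, the sliding clamp of the replication fork, at 12.6 CPM per kb, followed by Cdk4 at 12.2 and Ccnd1 at 5.84. Cdk2 (3.87), the helicase subunit Mcm7 (3.48) and the ribonucleotide reductase subunit Rrm2 (2.76) came next. Mcm4 was at 0.894 CPM per kb and Mcm5, the lowest of the Mcm genes, at 0.532. The highest mitosis gene was Birc5, which encodes survivin of the passenger complex, at 1.64, and the proliferation marker Mki67 stood at 0.346. Cdc6, which loads the helicase on origins, was the lowest at 0.0610 CPM per kb with 0 to 10 counts in a library.

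**Figure D1:**
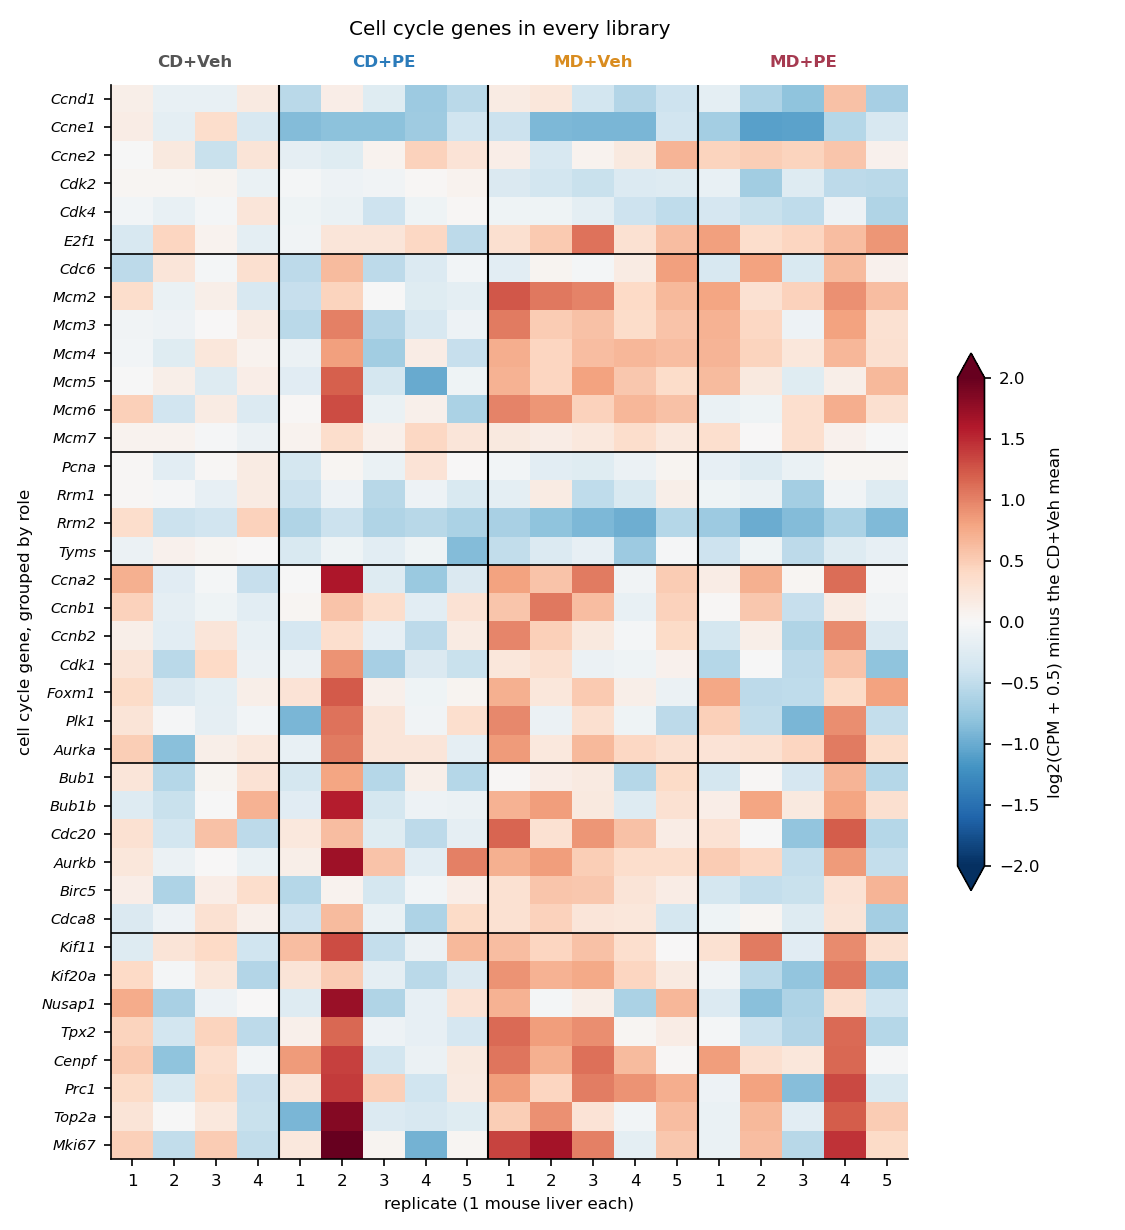
Heat map of the 38 genes (rows, ordered by role, from G1 genes at the top to spindle and chromosome genes at the bottom) in the 19 libraries (columns, by group and replicate), with colour giving log2(CPM + 0.5) minus the mean of that quantity over the 4 CD + Veh libraries, so that red is above and blue below the CD + Veh mean. Mcm2 to Mcm7 are red in the 5 MD + Veh columns, Rrm2 is blue in the columns of the other 3 groups, and CD + PE replicate 2 is the reddest column of its group across the mitosis rows.

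Stretches of sequence just before the start site are shown for Mcm2 to Mcm6 and for Cdk1 and Rrm2, because Mcm2 and Rrm2 are among the called genes below, the other Mcm genes are its partners in the helicase, and Cdk1 stands for the mitosis group. The Mcm6 stretch stops at -65. They were read 5′ to 3′ on the gene's own strand from GRCm39, with positions counted from the start of the canonical GENCODE vM39 transcript, whose last upstream base is -1. Capitals mark matches, on either strand, to an E2F site (TTTCCCGC, TTTCGCGC, TTTGCCGC or TTTGGCGC), to the CHR element bound by DREAM (TTTGAA) and to the CCAAT box of the factor NF-Y (CCAAT, which reads ATTGG on the other strand).
Mcm2 (-180 to -1, chr6:88875763-88875942, minus strand): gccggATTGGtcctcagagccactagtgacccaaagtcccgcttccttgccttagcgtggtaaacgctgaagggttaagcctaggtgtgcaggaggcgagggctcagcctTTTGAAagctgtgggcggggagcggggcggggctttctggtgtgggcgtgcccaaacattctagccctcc
Mcm3 (-120 to -1, chr1:20890537-20890656, minus strand): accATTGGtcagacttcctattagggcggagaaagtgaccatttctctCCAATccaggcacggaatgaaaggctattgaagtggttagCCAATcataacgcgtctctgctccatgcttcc
Mcm4 (-120 to -1, chr16:15455265-15455384, minus strand): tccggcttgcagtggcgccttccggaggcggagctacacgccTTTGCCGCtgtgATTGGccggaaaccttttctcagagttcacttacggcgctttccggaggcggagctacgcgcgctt
Mcm5 (-160 to -1, chr8:75835980-75836139, plus strand): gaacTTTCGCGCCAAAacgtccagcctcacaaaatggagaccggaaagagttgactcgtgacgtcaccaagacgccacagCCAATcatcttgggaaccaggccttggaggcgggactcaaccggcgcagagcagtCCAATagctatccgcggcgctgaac
Mcm6 (-140 to -65, chr1:128287517-128287592, minus strand): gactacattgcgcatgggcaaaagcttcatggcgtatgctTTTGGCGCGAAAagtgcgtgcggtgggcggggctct
Cdk1 (-120 to -5, chr10:69188773-69188888, minus strand): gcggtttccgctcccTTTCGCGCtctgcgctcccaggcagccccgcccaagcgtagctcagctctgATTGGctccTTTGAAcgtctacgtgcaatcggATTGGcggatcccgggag
Rrm2 (-100 to -1, chr12:24757711-24757810, plus strand): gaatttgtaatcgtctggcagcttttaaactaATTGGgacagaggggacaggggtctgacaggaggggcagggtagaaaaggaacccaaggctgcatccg

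An E2F site lay from -78 to -71 in Mcm4 and from -105 to -98 in Cdk1. In Mcm5 and in Mcm6 a pair of such sites overlapped on opposite strands, from -156 to -145 and from -100 to -89. The Mcm2 stretch held a CHR element from -70 to -65 and a CCAAT box from -175 to -171, and the Mcm3 stretch held 3 CCAAT boxes. The Rrm2 stretch had a single CCAAT box. Nearer its start, outside the stretch shown, Mcm6 held a further E2F site from -37 to -30 and CCAAT boxes at -47 and -4, while Mcm7, which is not shown, held no match to any of the motifs. After the start, Mcm3 held E2F sites from 20 to 27 and from 39 to 46, Rrm2 a CHR element from 15 to 20 and Cdk1 one from 12 to 17. Further upstream, Mcm4 held an E2F site from -224 to -217. Mcm4, Mcm5 and Cdk1 also held a further CCAAT box outside their stretches. Over windows from 250 bases before to 50 bases after the start, 8 of the 38 genes (21.1%) held an E2F site against 613 of 21580 protein-coding genes (2.84%). A CHR element was in 13 (34.2%) against 16.8% of all, and a CCAAT box in 24 (63.2%) against 39.8%. These are matches of letters only, and no binding was measured.

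Of the 38 genes, 34 passed the filter on low counts and were tested together with 13597 genes in all. Cdc6, Ccnb1, Bub1 and Aurkb were too scarce to be tested. Calls needed both an adjusted p (edgeR's quasi-likelihood test, Benjamini-Hochberg) under 0.05 and a log2 fold change of 0.38 or more in either direction. Comparisons that use the same group share its mice: both CD + PE and MD + Veh were set against the same 4 CD + Veh livers.

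**Figure D2:**
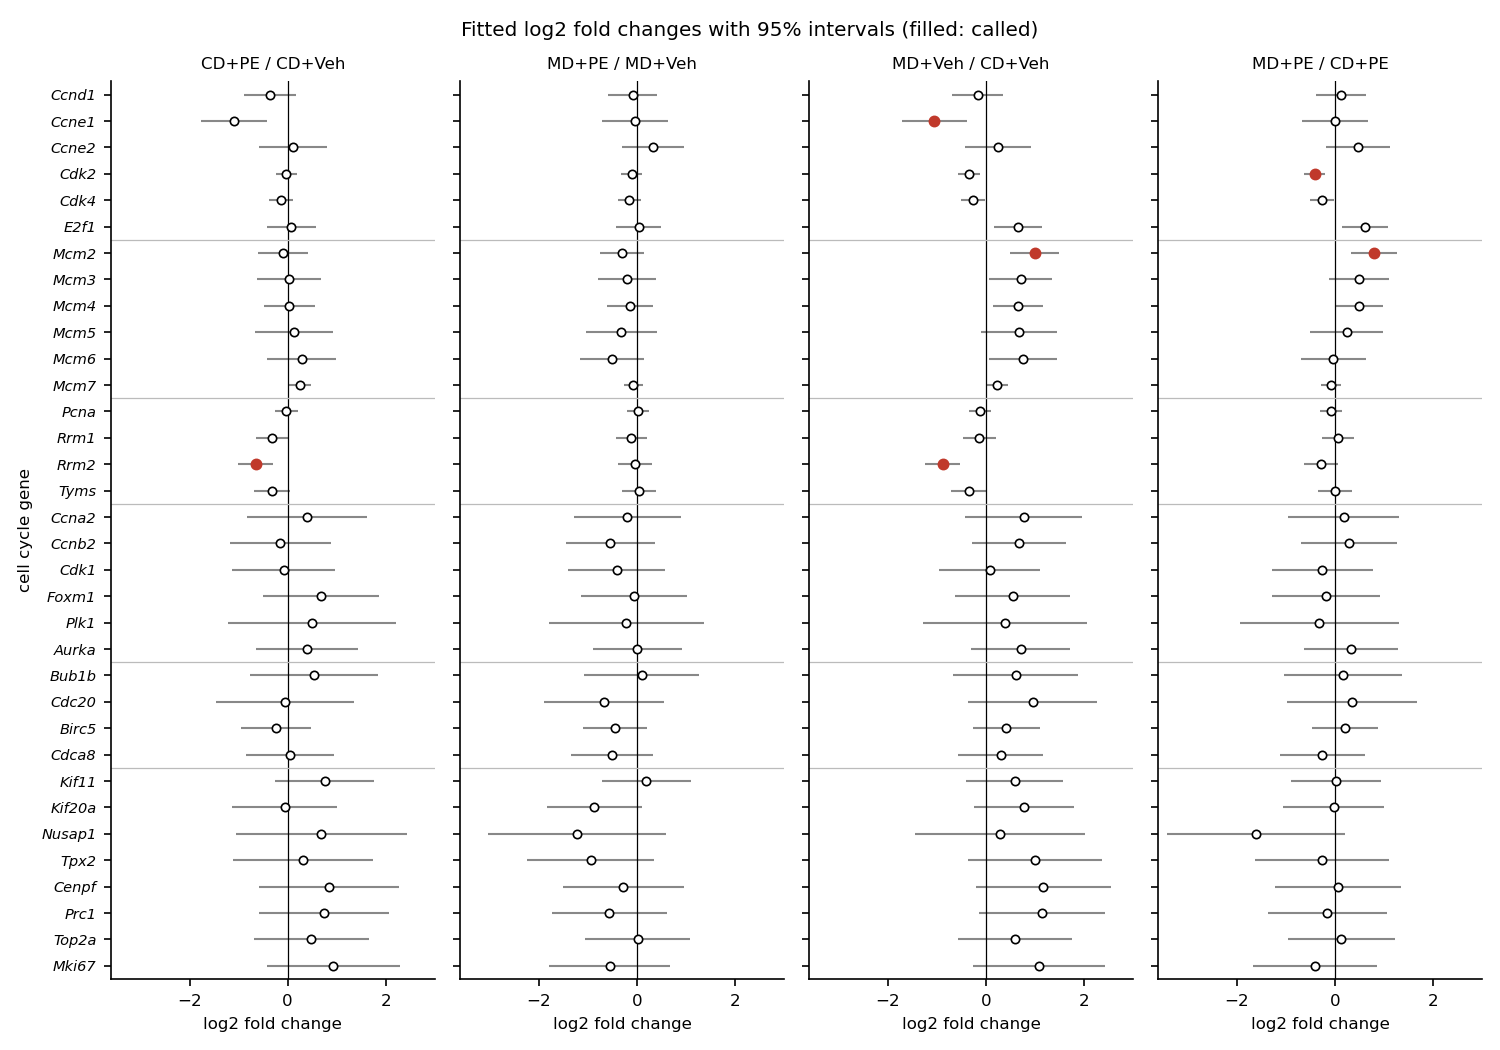
Fitted log2 fold changes (x axis) of the 34 tested genes (y axis, in order of role) in the 4 comparisons of single groups, one panel each, with lines giving 95% intervals and filled red points the called genes. Only Rrm2 is filled in CD + PE against CD + Veh and no gene in MD + PE against MD + Veh, while Ccne1, Mcm2 and Rrm2 are filled in MD + Veh against CD + Veh, and Cdk2 and Mcm2 in MD + PE against CD + PE.

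With vehicle gavage, MD livers held more of the helicase subunit messenger Mcm2 and less Ccne1 and Rrm2 than CD livers. In MD + Veh against CD + Veh 3 of the 34 tested genes were called, 1 higher and 2 lower, while 10.4% of all genes tested were called (4.74% higher and 5.63% lower). The share of called genes, 8.82%, was thus no larger than the background. The median log2 fold change over the 34 was 0.59, beside -0.004 over all genes tested, with 26 of the 34 above 0. The ranges of the 2 groups did not overlap for 9 of the 34 genes (Ccne1, Cdk2, Mcm2, Mcm3, Mcm4, Mcm5, Mcm7, Prc1 and Rrm2), 6 of them higher in MD + Veh, against 16.2% of all genes tested.

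Among the G1 genes, Ccne1, whose cyclin E1 activates Cdk2 at entry into S phase, fell to less than its CD + Veh range on the MD. It measured 1.68, 1.22, 2.01 and 1.08 CPM in the 4 CD + Veh livers and 0.951, 0.557, 0.546, 0.542 and 1.00 CPM in the 5 MD + Veh livers. The highest MD + Veh liver was under the lowest CD + Veh liver. Its log2 fold change was -1.05 (SE 0.314, edgeR adjusted p = 0.0317), on 7 to 30 counts a library in these groups. The call was lost without the filter on low counts (adjusted p = 0.101), when all libraries were thinned to the lowest total (0.149), with a term for library numbers 39 to 45 against 46 to 57 (0.0523), with libraries 39 to 45 only, a setting added after seeing the data (0.0702), and when any of CD + Veh replicates 1 or 3 or MD + Veh replicates 2, 3 or 4 was left out (0.0661 to 0.112). The sample labels give running library numbers and name no batch at that division, which falls between MD + Veh replicates 3 and 4.

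Cdk2, the kinase partner of cyclin E1, was lower on the MD with either gavage. It was at 10.6, 10.6, 10.8 and 9.43 CPM in CD + Veh and at 8.37, 7.93, 7.5, 8.51 and 8.57 CPM in MD + Veh. All MD + Veh livers were below all CD + Veh livers. The log2 fold change of -0.34 (SE 0.105, edgeR adjusted p = 0.0351) passed the p limit and not the fold limit. E2f1, the transcription factor that activates replication genes, was measured at 2.24 to 4.08 CPM (median 2.79) in CD + Veh and 3.71 to 6.75 CPM (median 4.40) in MD + Veh, and its log2 fold change of 0.65 (SE 0.235) had an adjusted p of 0.0712 in edgeR. Ccnd1, the D-type cyclin that responds to growth signals and the most abundant cyclin of the list, was at 27.5, 22.8, 22.9 and 28.8 CPM in CD + Veh and 28.5, 29.7, 19.6, 16.7 and 18.9 CPM in MD + Veh. These ranges overlapped, and the log2 fold change was -0.17 with a 95% interval from -0.69 to 0.36.

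The 6 subunits of the Mcm2 to Mcm7 helicase, which unwinds DNA at the fork, were all above 0 on the MD. Their summed level was 26.1, 22.2, 24.5 and 22.4 CPM in CD + Veh and 40.8, 34.9, 35.2, 33.9 and 33.3 CPM in MD + Veh. Every MD + Veh liver lay above every CD + Veh liver, and replicate 1, the liver with the most skeletal muscle RNA, was the highest. The log2 fold changes of single subunits ran from 0.23 (Mcm7) to 0.99 (Mcm2) with a median of 0.70, and 5 of 6 had an unadjusted p below 0.05, but Mcm2 was the only subunit called. Over all genes tested, 28.6% had an unadjusted p below 0.05 in this comparison.

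Mcm2 measured 3.42, 2.29, 2.82 and 1.95 CPM in CD + Veh and 6.78, 5.88, 5.59, 3.56 and 4.33 CPM in MD + Veh. The groups did not overlap, though MD + Veh replicate 4 came within a small step of the highest CD + Veh liver. The log2 fold change was 0.99 (SE 0.236, edgeR adjusted p = 0.00776), that is, 1.99-fold higher. Mcm2 stayed called when any single library was left out. Mcm6 was at 4.85, 2.44, 3.82 and 2.69 CPM in CD + Veh and at 7.10, 6.57, 4.77, 5.57 and 5.25 CPM in MD + Veh, with 1 MD liver just under the highest CD liver. Its log2 fold change of 0.76 (SE 0.332) had an adjusted p of 0.136 in edgeR. CD + PE replicate 2 was a mouse outside this comparison whose spread enters the shared estimate. Without it, 6 of the 32 cell cycle genes tested were called (Ccne1, Mcm2, Mcm3, Mcm4, Mcm6 and Rrm2), beside 1652 of 13608 genes in all. A fit to these 2 groups alone called 7 of 30, beside 1546 of 13247 in all. The main fit called 1410 of 13597 genes.

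Of the genes of replication and nucleotide supply, Rrm2 fell and Pcna, Rrm1 and Tyms were not called. Rrm2, the S-phase subunit of ribonucleotide reductase, measured 13.6, 7.66, 7.99 and 14.7 CPM in CD + Veh and 6.53, 5.82, 5.39, 5.11 and 6.95 CPM in MD + Veh. The CD + Veh livers split into a pair near 14 CPM and a pair near 8, and all 5 MD + Veh livers were below both pairs. The log2 fold change was -0.88 (SE 0.170, edgeR adjusted p = 0.00161), a level 1.84-fold lower. Pcna was at 17.1 to 22.4 CPM in CD + Veh (median 20.3) and 16.7 to 20.8 CPM in MD + Veh (median 18.3). The interval of its log2 fold change ran from -0.35 to 0.11. Rrm1 and Tyms, the large reductase subunit and thymidylate synthase, had log2 fold changes of -0.13 and -0.35.

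No mitosis gene was called on the MD with vehicle. Their log2 fold changes were above 0 for 18 of the 18 tested, from 0.08 (Cdk1) to 1.18 (Cenpf, a kinetochore protein), with a median of 0.64. No single one had an unadjusted p below 0.05, against 28.6% of all genes tested. In DESeq2, which also fitted the 3 scarcest, 21 of 21 were above 0 with a median of 0.69. Mki67 measured 2.99, 1.29, 3.09 and 1.28 CPM in CD + Veh and 5.89, 7.5, 4.57, 1.70 and 3.17 CPM in MD + Veh. MD + Veh replicate 4 lay inside the CD + Veh range and the other 4 above it. The log2 fold change of 1.08 carried an SE of 0.643 (edgeR adjusted p = 0.283).

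The mitosis genes fell into a higher and a lower set of livers within MD + Veh. Summed over the 21 genes they were at 32.8, 30.3 and 27.9 CPM in replicates 1 to 3 (library numbers 43 to 45) and at 17.1 and 20.2 CPM in replicates 4 and 5 (46 and 47), beside 20.5, 9.88, 18.9 and 12.5 CPM in CD + Veh. The 6 skeletal muscle markers divided the same livers, with sums of 2720, 172 and 114 CPM in replicates 1 to 3 and 13.2 and 1.85 CPM in replicates 4 and 5. No test was made of this split. Markers of other tissues were called higher in MD + Veh than in CD + Veh: 6 of 6 skeletal muscle genes (median log2 fold change 6.21) and 1 intestinal gene, Fabp2 (log2 fold change 1.08). The intestinal sums, 122 to 137 CPM against 57.9 to 90.0 CPM, were mostly Fabp2 (104 to 121 against 42.6 to 66.6 CPM). Of 8 listed intestinal genes 3 were tested, and 2 of these had fold changes above 0. Lgals4 was at 7.36 to 12.5 CPM in MD + Veh against 9.38 to 17.5 CPM in CD + Veh. The 6 Kupffer cell markers had fold changes above 0 (median log2 fold change 0.51, 0 of 6 called), with sums of 201, 284, 309, 259 and 237 CPM in MD + Veh, lowest in replicate 1, against 106 to 180 CPM in CD + Veh. Also above 0 were the 5 stellate cell markers (184 to 348 against 136 to 199 CPM, 0 of 5 called). The hepatocyte markers were lower, with 3 of 6 called (Fgb, Apoa1 and Alb) and sums of 49400 to 63800 against 73100 to 89400 CPM. The part of these cell types in the cell cycle values was not tested.

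**Figure D3:**
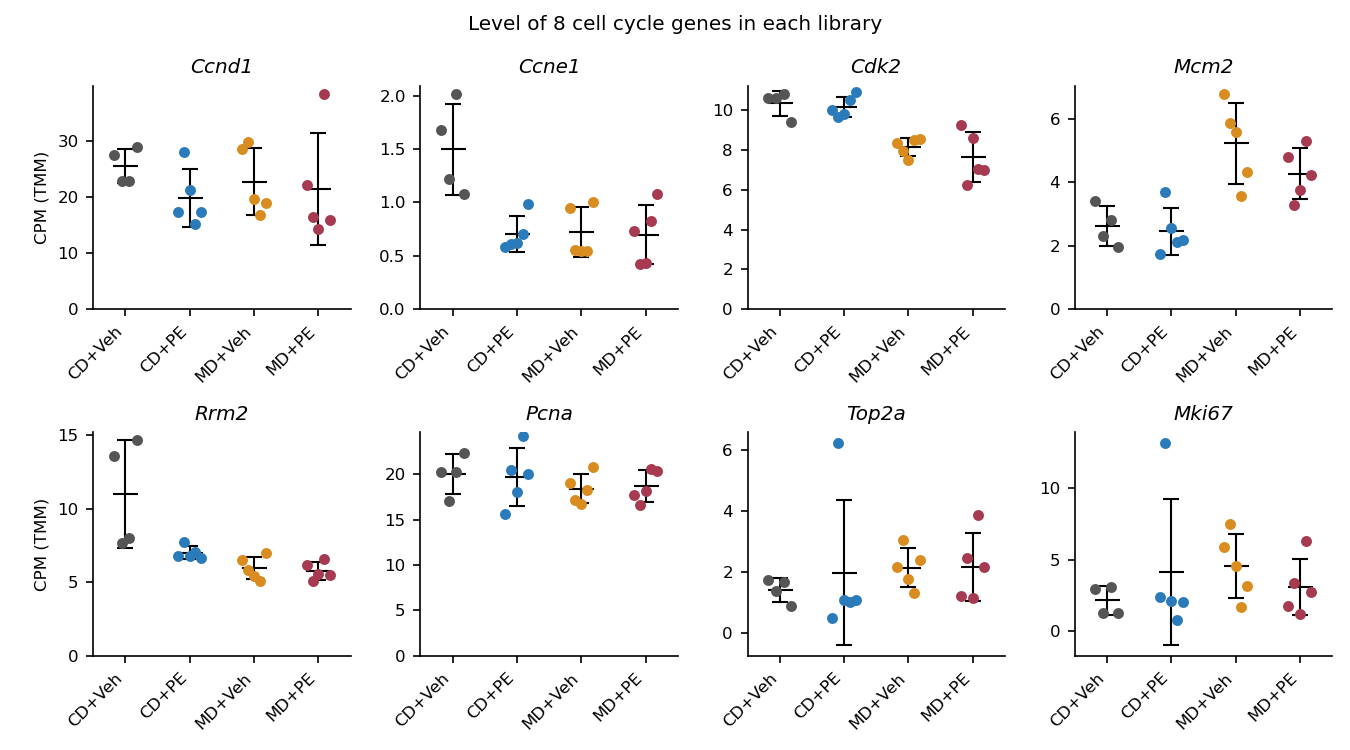
Level (y axis, CPM after TMM scaling, each panel with its own scale) of 8 of the genes in each library by group (x axis), with the bar giving the mean and the SD. Rrm2 shows the split CD + Veh group with 2 livers near 14 CPM, Mcm2 the higher MD groups, Pcna groups at one level, and Top2a and Mki67 the single CD + PE liver at 6.23 and 13.2 CPM.

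On the control diet, PE went with less Rrm2. Between CD + PE and CD + Veh, 1 of the 34 tested genes was called (lower in CD + PE), which is 2.94% of them, while 2.92% of all genes tested were called (1.70% lower). Rrm2 measured 6.81, 7.72, 6.80, 7.03 and 6.62 CPM in CD + PE. These values lay close together, far under the CD + Veh pair near 14 CPM, with the highest inside the pair near 8. The log2 fold change was -0.65 (SE 0.171, edgeR adjusted p = 0.0389). The call was lost on leaving out any 1 of 6 libraries, replicates 1 and 4 of CD + Veh and all but replicate 2 of CD + PE (adjusted p from 0.0700 to 0.175), and also without the filter on low counts (0.0578) and with only these 2 groups in the fit (0.124). With the replicate number as a block it was lost too (0.0535), and Ccne1 was called in its place.

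Ccne1 was the gene whose ranges did not overlap in this comparison, as held for 7.83% of all genes tested. Against 1.08 to 2.01 CPM in CD + Veh it was at 0.581, 0.614, 0.618, 0.703 and 0.988 CPM in CD + PE, with a log2 fold change of -1.09 (SE 0.324, edgeR adjusted p = 0.0670). Its counts were only 7 to 10 a library in CD + PE. Ccnd1 was at 17.3, 28.0, 21.3, 15.1 and 17.3 CPM under PE, and its log2 fold change of -0.37 had a 95% interval from -0.90 to 0.17. For Cdk2 the interval, from -0.25 to 0.19, was narrow, and for Mcm2, from -0.61 to 0.41, it was wider.

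One CD + PE liver departed from the rest in most of the Mcm and mitosis genes. In replicate 2 the 21 mitosis genes summed to 52.7 CPM, against 14.1, 12.7, 9.84 and 15.7 CPM in its 4 group mates. It was the highest of its group for 20 of the 21 genes and the highest of all 19 livers for 15. Mki67 was at 13.2 CPM there against 2.41, 2.12, 0.803 and 2.07 CPM, and Top2a, the topoisomerase that untangles replicated DNA, was at 6.23 CPM against 0.498, 1.06, 1.00 and 1.09 CPM. The Mcm2 to Mcm7 sum was 42.9 CPM against 20.7 to 25.1 CPM. Mcm7, at 11.8 CPM there against 12.4 CPM in replicate 4, was the exception among the Mcm genes. The G1, Pcna and nucleotide supply genes did not share this, since replicate 2 was the highest of its group in 3 of those 10 genes.

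That liver also had the highest sum of Kupffer cell markers of all 19, at 459 CPM, and with 7.54 CPM the highest T, NK and B cell sum. Its neutrophil and monocyte sum was 7.54 CPM against 2.16 to 3.09 CPM in its group, its hepatocyte sum of 65800 CPM was the lowest of the group, and its clock score (a contrast of clock genes given at the end) of 0.55 was the highest of the 19, against -2.95 to -1.58 in its group, whereas its stellate cell sum of 194 CPM lay within the 163 to 204 CPM of its group. The part of these in its mitosis values was not tested. Without replicate 2 the median log2 fold change of the tested mitosis genes in CD + PE against CD + Veh went from 0.44 (13 of 18 above 0) to -0.31 (4 of 16 above 0), and that of the Mcm2 to Mcm7 genes from 0.08 to -0.29. None of them was called either way. The direction of these genes under PE on the control diet thus rested on 1 liver.

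**Figure D4:**
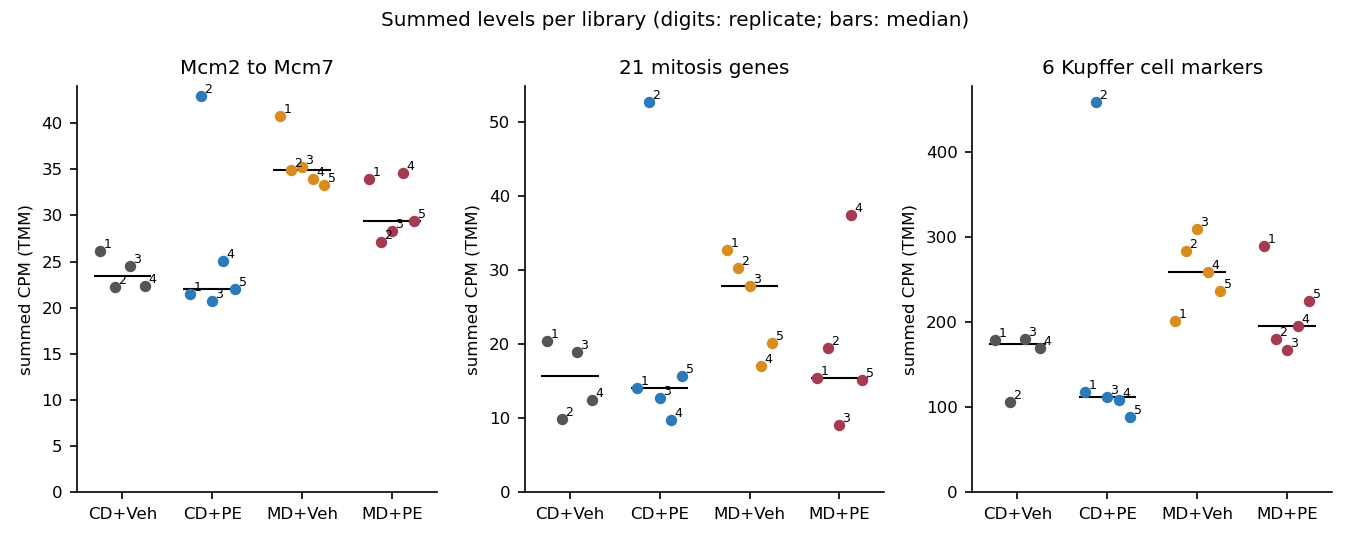
Summed CPM (y axes, after TMM scaling) of Mcm2 to Mcm7, of the 21 mitosis genes and of 6 Kupffer cell markers in each library by group (x axes), with digits giving the replicate and bars the group median. CD + PE replicate 2 is the top point of all 3 panels, MD + PE replicate 4 the second highest in mitosis genes at 37.4 CPM, and the MD + Veh livers sit above the CD + Veh livers in the Mcm panel.

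On the MD, PE gave no call among these genes. In MD + PE against MD + Veh 0 of the 34 tested genes were called by edgeR, 0 had an unadjusted p below 0.05 and DESeq2 called 0, while 1.08% of all genes tested were called by edgeR (0.147% higher and 0.934% lower). An unadjusted p below 0.05 was found for 15.7% of all genes tested. All 6 Mcm2 to Mcm7 log2 fold changes were below 0, from -0.50 (Mcm6) to -0.07 (Mcm7), and the mitosis genes had a median of -0.43 with 4 of 18 above 0. The Mcm sums were 33.9, 27.1, 28.3, 34.6 and 29.4 CPM in MD + PE, overlapping the 33.3 to 40.8 CPM of MD + Veh.

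The mitosis sums in MD + PE were 15.5, 19.5, 9.04, 37.4 and 15.2 CPM. Replicate 4 was the highest of its group for 16 of the 21 genes, with Mki67 at 6.32 CPM against 1.79, 3.37, 1.22 and 2.78 CPM in the others. It also held the highest Ccnd1 of all livers, 38.4 CPM against 22.2, 16.4, 14.3 and 15.8 CPM, and the highest stellate cell sum, 441 CPM. Its Kupffer cell sum of 195 CPM lay within its group (167 to 290 CPM), as did its T, NK and B cell sum of 2.88 CPM (2.69 to 4.09 CPM). Its clock score of -1.19 also lay within its group (-1.95 to -0.07). Its neutrophil and monocyte sum, 13.5 CPM against 3.74 to 5.36 CPM in its group, was the highest of the 19 livers. Of that sum 8.79 CPM was Ccr2. Csf3r (2.4 CPM) and Ly6c2 (0.824 CPM) were below MD + PE replicate 1 (2.68 CPM) and replicate 5 (0.898 CPM), and 2 of the 6 listed genes passed the filter. The hepatocyte sum of replicate 4, 47000 CPM, was the lowest of the 19 livers, and the part of these values was not tested. Without it the median of the tested mitosis genes was -0.71, with 1 of 17 above 0 and 0 called. With libraries numbered 46 to 57 only, a setting chosen after seeing the data that leaves out the 3 MD + Veh livers with the highest mitosis sums, that median was 0.14 (10 of 18 above 0). For Rrm2, at 6.18, 5.05, 5.56, 6.59 and 5.48 CPM in MD + PE, the log2 fold change was -0.04 with a 95% interval from -0.39 to 0.30. Ccne1, at 0.731, 0.421, 0.435, 0.824 and 1.08 CPM, gave -0.04 with an interval from -0.71 to 0.63.

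With PE in both groups, the diets differed in Cdk2 and Mcm2. In MD + PE against CD + PE 2 of the 34 tested genes were called, 1 in each direction, while 4.61% of all genes tested were called (1.69% higher and 2.92% lower) and 5.88% of the 34. Cdk2 was at 10.05, 9.65, 9.80, 10.5 and 10.9 CPM in CD + PE and at 9.26, 6.23, 8.61, 7.07 and 7.0 CPM in MD + PE. The groups did not overlap, and the log2 fold change was -0.41 (SE 0.101, edgeR adjusted p = 0.0173). Cdk2 and Rrm2 were the genes with no overlap here, a pattern in 6.18% of all genes tested, and Rrm2 itself was not called (log2 fold change -0.28, adjusted p = 0.358 in edgeR). The Cdk2 call was lost without the filter on low counts (adjusted p = 0.0567), with only these 2 groups in the fit (0.0852), and without MD + PE replicate 2 or 4, where its log2 fold change of -0.35 or -0.38 came under the fold limit.

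Mcm2 was at 1.74, 3.68, 2.56, 2.11 and 2.17 CPM in CD + PE and at 4.79, 3.28, 3.74, 5.29 and 4.22 CPM in MD + PE. CD + PE replicate 2 was inside the MD + PE range, and the other CD + PE livers were below it. The log2 fold change was 0.80 (SE 0.228, edgeR adjusted p = 0.0390). The call was lost when any of CD + PE replicates 1, 3, 4 or 5 or MD + PE replicates 1, 4 or 5 was left out (adjusted p from 0.0676 to 0.102) and with the replicate number as a block (0.0554). E2f1 was at 1.88 to 4.02 CPM in CD + PE and 3.87 to 5.75 CPM in MD + PE, with a log2 fold change of 0.61 (SE 0.224, edgeR adjusted p = 0.110).

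The number of genes called between the diets under PE varied with single libraries. Without CD + PE replicate 2, 6 of the 32 cell cycle genes tested in that fit were called. Mcm2, Mcm3, Mcm4, Mcm5 and Top2a were higher on the MD and Cdk2 was lower. Mcm2 had a log2 fold change of 0.99 (edgeR adjusted p = 0.00836) and Top2a one of 1.25 (0.0439). Calls over all genes tested rose as well, from 627 of 13597 to 987 of 13608. The median of the tested mitosis genes then went from 0.00 (9 of 18 above 0) to 0.48 (16 of 16 above 0). Without MD + PE replicate 4, none was called, beside 526 of 13574 genes in all, and that median was -0.34.

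The effect of PE was not shown to differ between the diets for any of these genes. In the test of the interaction of PE and diet 0 of the 34 were called by edgeR and 0 by DESeq2, while 0.00735% of all genes tested were called by edgeR. Unadjusted p-values below 0.05 were found for Rrm2 (interaction 0.61 on the log2 scale, adjusted p = 0.462), Ccne1 (1.05, 0.527) and Mcm7 (-0.32, 0.535). These are 3 of the 34, near the share of 8.77% among all genes tested. The group means of Rrm2 were 11.0 ± 3.67 (SD, n = 4) CPM in CD + Veh, 6.99 ± 0.430 (SD, n = 5) in CD + PE, 5.96 ± 0.771 (SD, n = 5) in MD + Veh and 5.77 ± 0.609 (SD, n = 5) in MD + PE, the last 2 being within their spread of each other. Those of Ccne1 were 1.5 ± 0.430, 0.701 ± 0.167, 0.720 ± 0.236 and 0.698 ± 0.277 CPM in the same order, with only CD + Veh apart. For 18 of the 18 tested mitosis genes the interaction was below 0, with a median of -0.60, and without CD + PE replicate 2 the median was -0.17.

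The untested and other low genes add little. Ccnb1, the cyclin partner of Cdk1 at mitotic entry, was at 0.622, 0.215, 0.268 and 0.202 CPM in CD + Veh, and at 0.201 to 0.702 CPM in CD + PE, 0.232 to 1.18 CPM in MD + Veh and 0.0869 to 0.674 CPM in MD + PE. It rested on 1 to 19 counts a library. Cdk1, the kinase that drives mitosis, was at 0.430 to 1.27 CPM in CD + Veh, 0.353 to 2.02 CPM in CD + PE, 0.750 to 1.18 CPM in MD + Veh and 0.269 to 1.51 CPM in MD + PE, and no pair of groups was separated. With no filter on low counts, the adjusted p of Cdc6, Ccnb1, Bub1 and Aurkb was no lower than 0.335 in any comparison.

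Other genes of the same pathway were taken as whole lists, to be read beside the 10.4% of all genes tested that were called in MD + Veh against CD + Veh, 2.92% in CD + PE against CD + Veh and 4.61% in MD + PE against CD + PE. Of 5 tested CDK inhibitors 1 was called in each of these comparisons. Cdkn1a (p21) was higher in MD + Veh than in CD + Veh, at 2.32 to 14.0 CPM against 0.470 to 2.80 CPM (log2 fold change 2.13, SE 0.641, edgeR adjusted p = 0.0320). Cdkn2c (p18) was higher in CD + PE, at 4.12 to 6.06 CPM, than in CD + Veh, at 2.80 to 3.96 CPM (log2 fold change 0.65, adjusted p = 0.0465 in edgeR). It was lower in MD + PE, at 2.51 to 3.36 CPM, than in CD + PE (log2 fold change -0.81, adjusted p = 0.00583 in edgeR). Of 15 tested genes of other D cyclins, CDKs and their control, the growth-arrest cyclins Ccng1 (0.82) and Ccng2 (0.75) were called higher in MD + Veh against CD + Veh, and none in the other comparisons. Of 15 tested pocket proteins, other E2F genes and DREAM subunits 0 were called in any comparison, with 3 at an unadjusted p below 0.05 in MD + Veh against CD + Veh. Of 31 other replication genes 1 was called, Rfc5 of the clamp loader, lower in MD + PE than in CD + PE (log2 fold change -0.54, adjusted p = 0.0445 in edgeR). Of 19 other mitosis genes 0 were called by edgeR, with 16 above 0 and a median log2 fold change of 0.44 in MD + Veh against CD + Veh, where 1 had an unadjusted p below 0.05. In that comparison 28.6% of all genes tested had an unadjusted p below 0.05.

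The circadian clock, which gates cell cycle genes in the liver, also moved with the groups. Of 17 clock genes 10 were called in MD + Veh against CD + Veh, among them Bmal1 (log2 fold change 2.15) and Dbp (-1.62), and 2 (Bmal1 and Clock) in CD + PE against CD + Veh, where 10.4% and 2.92% of all genes tested were called. A clock score was the mean log2 CPM of 5 genes (Bmal1, Clock, Npas2, Nfil3 and Cry1) minus that of 7 (Dbp, Tef, Per3, Nr1d1, Nr1d2, Ciart and Hlf). The score ran from -4.40 to -3.02 in CD + Veh, -2.95 to 0.55 in CD + PE, -2.11 to -0.19 in MD + Veh and -1.95 to -0.07 in MD + PE, so CD + Veh overlapped no other group. With this score as a covariate, chosen after seeing the data, no cell cycle gene was called in MD + Veh against CD + Veh or in CD + PE against CD + Veh (Mcm2 at 0.35, adjusted p = 0.586; Rrm2 at -0.79 and -0.58, adjusted p = 0.107 and 0.193, in edgeR), while Cdk2 and Mcm2 were still called in MD + PE against CD + PE. With the score, calls over all genes tested also fell, from 1410 to 415 of 13597 in MD + Veh against CD + Veh. In CD + PE against CD + Veh they fell from 397 to 278. The clock and the CD + Veh group cannot be told apart in these samples.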

How the data were processed

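Poly(A) libraries from 19 mouse livers were sequenced by the authors, trimmed with fastp 0.23.4 and quantified with Salmon 1.10.3 on GRCm39. The deposited values are estimated counts per gene, given as whole numbers. All 19 libraries were fitted together with edgeR 4.0.16 (R 4.3.3; TMM scaling, filterByExpr by group, quasi-likelihood test), whose p-values were adjusted over 13597 genes. The limits (adjusted p 0.05, absolute log2 fold change 0.38) follow the study's methods. DESeq2 1.42.0, other scaling, no filter, thinning, fits to 2 groups and fits without each library were alternatives. The scripts were tested on simulated data. The members and lists were chosen with earlier results of these data known, so the comparisons are descriptions of those genes and not independent evidence. Genes were named singly where called, or as one of 10 genes standing for the roles, Ccnd1, Ccne1, Cdk2, E2f1, Mcm2, Mcm6, Pcna, Rrm2, Cdk1, Ccnb1, Top2a and Mki67 in all; others named at an extreme of a range were chosen after their values were seen. Levels per kilobase use the canonical transcript length. P-values rest on 1 library per mouse.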

Additional observations from a re-analysis of the deposited data

Results flagged for a closer look

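In 9 of 56 groups of values examined, the highest or the lowest liver stood far from its nearest neighbour in relation to the range of the group, where chance gives about 1 in 20. Most came from CD + PE replicate 2, which was the highest liver for Mcm6 (9.03 CPM, next 3.62), Cdk1 (2.02, next 0.747), Top2a (6.23, next 1.09), Mki67 (13.2, next 2.41), the Mcm2 to Mcm7 sum (42.9, next 25.1) and the sum of the 21 mitosis genes (52.7, next 15.7). These values share a library and largely count the same liver again. In MD + Veh replicate 1 the Mcm2 to Mcm7 sum was 40.8 CPM (next 35.2). In CD + Veh, Cdk2 was low in replicate 4 at 9.43 CPM (next 10.6), and Ccnb1 was high in replicate 1 at 0.622 CPM (next 0.268), a value of 10 counts.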

How the results depend on the processing

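In MD + PE against MD + Veh and in the interaction, 0 of the cell cycle genes were called under every alternative. Over all genes tested, calls in MD + PE against MD + Veh numbered 147 in the main fit. They ran from 18 of 13635 (libraries 46 to 57 only) to 304 of 25959 (DESeq2). In the interaction they numbered 1 in the main fit and ran from 0 (for instance with the clock score) to 79 of 25959 (DESeq2). In CD + PE against CD + Veh, where 1 gene was called, 0 were called without the filter on low counts, with only the 2 groups compared, with a term for library numbers 39 to 45 against 46 to 57, or with the clock score, and 0 to 1 when single libraries were left out. Over all genes tested, calls numbered 397 in the main fit, and 300, 289, 37 and 278 in those settings in turn. All CD + Veh libraries lie on the lower side of that division and all CD + PE libraries on the upper, so the term for library numbers cannot separate the division from PE here. In MD + Veh against CD + Veh, where 3 were called, DESeq2 called 5, the fit to the 2 groups 7, the clock score fit 0 and libraries 39 to 45 alone, which keep the 3 MD + Veh livers with the highest mitosis sums, 6, with 2 to 6 over the fits without 1 library. With the term for library numbers the count was 3, but Cdk2 was called in place of Ccne1. Over all genes tested, calls in this comparison numbered 1410 in the main fit, 1586 in DESeq2 and 1546 in the fit to the 2 groups. They numbered 415 in the clock score fit and 1842 with libraries 39 to 45 alone. In MD + PE against CD + PE, where 2 were called, 0 were called without the filter and with the 2 groups only, 1 with the replicate block, and 0 to 6 without 1 library. Over all genes tested, calls in this comparison numbered 627 in the main fit and 535 without the filter. They numbered 450 with the 2 groups only and 606 with the replicate block. The causes were not tested, except that fits to 2 groups have fewer samples and fewer genes. For the named genes that were tested (Ccnb1 was not), the other values gave 1601 on the same side of the threshold. Another 37 lost a call, 9 gained one and none changed sign while called. Values that were not called could change sign and still count as the same. Mki67 in CD + PE against CD + Veh, for instance, ran from -0.22 to 1.21 over the fits without 1 library.

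Libraries that share a replicate number did not deviate together: the median correlation over 27 such pairs was 0.0293, 6 pairs were above 0.1, and 4 of 19 libraries correlated best with their own number, so the numbers were not taken as pairs. With the number as a block, calls among the cell cycle genes numbered 1 for PE on the control diet (Ccne1), 3 for the diets with vehicle, 1 for the diets with PE (Cdk2), and 0 for PE on the MD and the interaction. Over all 13597 genes tested in that fit, calls numbered 419, 1448, 606, 178 and 41 in the same order. Low counts limit precision for many members, 17 of the 38 being below 1 CPM.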
